A study of Mus musculus with 6 samples.

Results

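Neurotrophins and the neurotrophic factors of the GDNF family, together with their receptors, were followed in microarray signals of mouse aortic tissue. Members were the probe sets whose array annotation gives only one of 8 listed mouse symbols, namely the factors Bdnf and Ntf3 and the receptors Ntrk2, Ntrk3, Ngfr, Ret, Gfra2 and Gfra3. Of the 8 genes, 7 had probe sets, 29 in all, among the 34945 probe sets with a single gene symbol, which stand for 18193 genes. Ntf3, which encodes neurotrophin-3, was not analysed here because the annotation table used lists no probe set for it. The level filter, an average signal of 100 or more in any group, was passed by 8 member probe sets of 5 genes (Ntrk2, Ntrk3, Ngfr, Ret and Gfra2), and these alone were tested.

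Aortic RNA came from 3 groups of mice, each measured on 2 arrays. Vitamin E-fed ApoE-/- mice lacked apolipoprotein E on a C57BL/6J (B6) background and received vitamin E, an antioxidant, at 2000 IU per kg diet for 7 months. Untreated ApoE-/- mice carried the same deficiency without the vitamin. Non-transgenic B6 mice served as controls. All mice entered the study at 4 to 6 weeks of age and were 32 to 34 weeks old when the aortas were taken. All ate the same base chow, which contained cholesterol and was made without added vitamin E. ApoE-deficient mice develop hypercholesterolemia and atherosclerotic plaques without a special diet. Each array held RNA pooled from 3 aortas, so that the spread between arrays is a spread between pools and the p-values measure no other error. The comparison of untreated ApoE-/- with B6 aortas asks what differs in the diseased vessel, and the comparison of vitamin E-fed with untreated ApoE-/- aortas asks what the antioxidant changes.

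Neurotrophins are secreted by the tissues that nerves grow into and keep the innervating neurons alive. BDNF acts through the tyrosine kinase receptor TrkB (Ntrk2), neurotrophin-3 mainly through TrkC (Ntrk3), and all neurotrophins also bind p75 (Ngfr). Ligands of the GDNF family bind a GFRα co-receptor, which presents them to the tyrosine kinase RET. Sympathetic nerves run in the outer layer of the aorta, but TrkB and TrkC also exist in truncated forms without a kinase domain that other cells make, so that these transcripts are not restricted to neurons. In tissue RNA, fewer cells of a type and less RNA per cell cannot be told apart.

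The targeted gene bore out the labels. Apoe had a signal intensity of 40.5 and 45.3 in vitamin E-fed ApoE-/- aortas, 93.2 and 57.4 in untreated ApoE-/- aortas, and 5209 and 5432 in B6 aortas. Mean signal intensity over all probe sets lay between 305 and 319 on the 6 arrays, and 35.8% to 37.3% of them reached 100. The ratio of 3′ to 5′ signal of Gapdh, a sign of RNA integrity, was 1.15 and 1.24 on vitamin E arrays, 1.03 and 1.06 on untreated ApoE-/- arrays, and 1.35 and 1.34 on B6 arrays, and its part in the results was not tested. Control transcripts added before labelling were 3.70 times as bright on B6 as on untreated ApoE-/- arrays and 1.35 times as bright on vitamin E as on untreated ApoE-/- arrays, against ratios of 1.11 and 1.06 for the controls added at hybridization. The arrays of vitamin E-fed aortas also have later records than the others. Batch and group cannot be told apart in this design.

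Receptor signals, where they differed, were mostly lower in ApoE-/- than in B6 aortas. Bdnf, the only factor among the members with probe sets, stayed near background in every group. Ret showed the widest gap among the probe sets with a mean of at least 100 over all arrays, 2.44-fold between untreated ApoE-/- and B6 aortas. Vitamin E-fed aortas differed from untreated ApoE-/- aortas in 2 member probe sets, which moved in opposite directions: Ngfr was higher and Ntrk2 was lower. In untreated ApoE-/- against B6 aortas, 6 of the 8 probe sets were called lower and 0 higher at an adjusted p under 0.05 in limma, where 40.8% of the 17909 probe sets tested were called, 19.1% of them all as lower. For vitamin E-fed against untreated ApoE-/- aortas, 1 member probe set was called higher and 1 lower, where 15.5% of all were called, 8.52% as higher and 6.99% as lower. For vitamin E-fed ApoE-/- against B6 aortas, 6 of 8 were called lower, where 41.1% of all were called and 19.2% as lower. The median log2 difference of the 8 probe sets was −0.46, −0.042 and −0.54 in these comparisons, against 0.029, 0.0035 and 0.020 over all probe sets tested. Both ApoE-/- groups are set against the same B6 arrays. Of the 8, Ntrk3 1447723_at passed the filter through its B6 level alone and therefore had to be lower in the other groups. Ntrk3 1425071_s_at passed through its untreated ApoE-/- level alone and had to be highest there. Both are in the counts and medians above. With the filter set on the mean over all arrays, 5 of 6 probe sets were called lower in each comparison with B6. Without the level filter, 3, 1 and 3 member probe sets were called (Ret 1436359_at, Ngfr 1454903_at and Ntrk3 1447723_at, then Ntrk2 1435196_at, then Ret 1436359_at, Ntrk2 1435196_at and Ntrk3 1447723_at), and leaving out 1 array gave 3 to 6, 1 to 3 and 3 to 6. The low counts came without any 1 of the untreated or B6 arrays in the first comparison, without untreated array 2, B6 array 1 or B6 array 2 in the second, and without B6 array 2 in the last. After median centring, 43.2%, 33.8% and 31.4% of all calls were higher, against 53.1%, 55.0% and 53.3% on the signals as deposited.

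**Figure D1:**
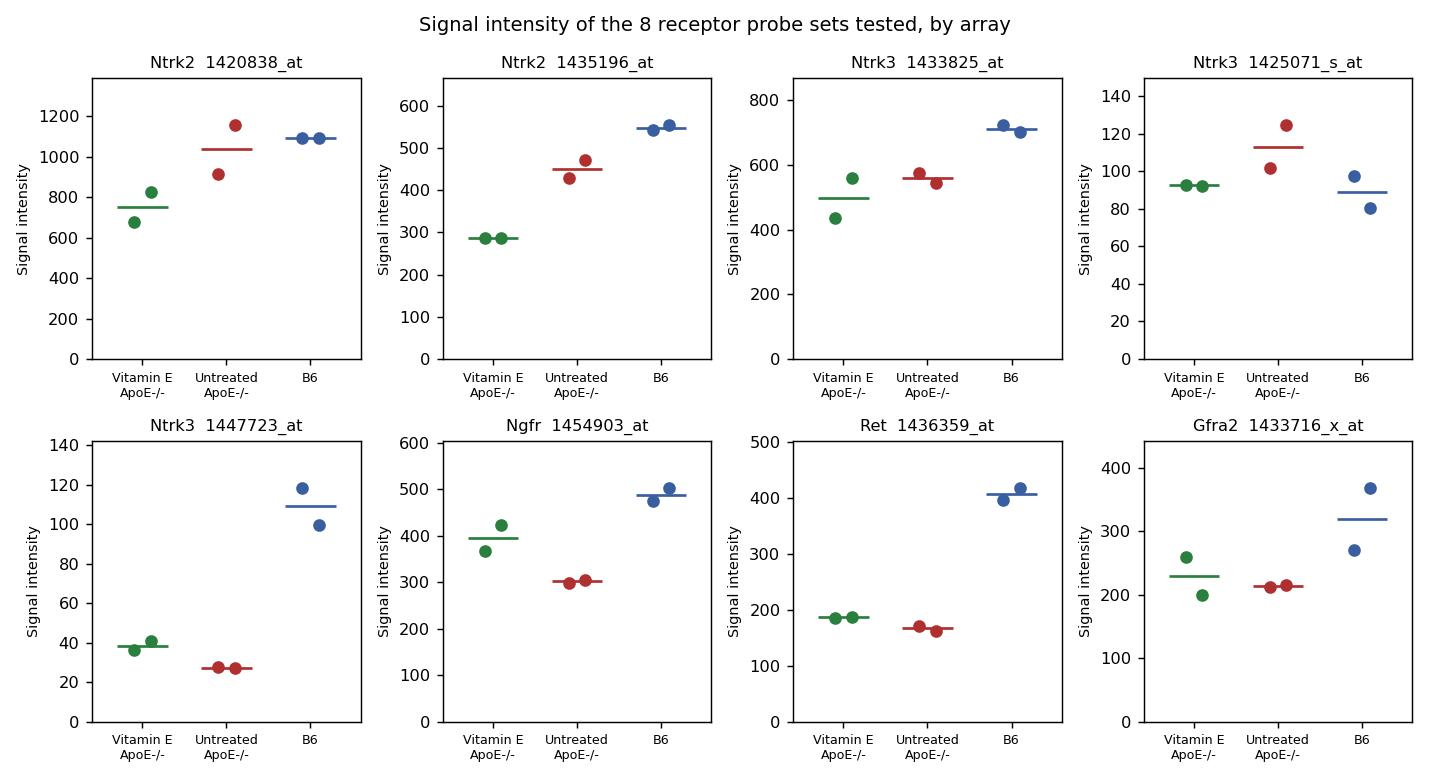
Signal intensity (linear axis from 0) of the 8 receptor probe sets tested, 1 panel each, in vitamin E-fed ApoE-/-, untreated ApoE-/- and B6 aortas. Points are single arrays and bars are means of 2 arrays. The B6 points lie above all ApoE-/- points for Ret, Ngfr, Gfra2, Ntrk2 1435196_at, Ntrk3 1433825_at and Ntrk3 1447723_at.

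Of the listed factors, only Bdnf had probe sets, and it was dim. BDNF supports sensory and other neurons and is made by vascular cells. Bdnf 1422169_a_at gave 15.9 and 23.8 in vitamin E-fed ApoE-/- aortas, 13.4 and 31.2 in untreated ApoE-/- aortas, and 14.2 and 21.4 in B6 aortas. All 3 groups overlapped, and values under 20, the floor used here, carry no order. Bdnf 1422168_a_at read 12.5 and 9.0 in vitamin E-fed ApoE-/- aortas, 21.0 and 16.3 in untreated ApoE-/- aortas, and 11.5 and 10.2 in B6 aortas. Only 1 of those 6 values was above the floor. A difference in Bdnf was therefore not detectable at this signal level.

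Ret encodes the signalling receptor for the GDNF family and is made by sympathetic and enteric neurons. Ret 1436359_at read 185.0 and 188.3 in vitamin E-fed ApoE-/- aortas, 172.3 and 161.8 in untreated ApoE-/- aortas, and 396.7 and 418.6 in B6 aortas. Every ApoE-/- array lay far below the lowest B6 array. The untreated ApoE-/- signal was 2.44-fold lower than the B6 signal (log2 difference −1.29, SE 0.10, adjusted p = 9.92e-05), and the vitamin E signal was 2.18-fold lower than the B6 signal (−1.13, SE 0.10, adjusted p = 2e-04). Between vitamin E-fed and untreated ApoE-/- aortas the log2 difference was 0.16 (95% interval −0.075 to 0.40, adjusted p = 0.317). Both calls against B6 held in all 6 fits that left out 1 array. The second Ret probe set, 1421359_at, was untested at 35.7 and 49.3 in vitamin E-fed ApoE-/- aortas, 75.0 and 66.3 in untreated ApoE-/- aortas, and 42.6 and 44.6 in B6 aortas. That order is not the one of 1436359_at, since the untreated ApoE-/- arrays were the brightest. Which part of the transcript each probe set reads was not examined.

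The co-receptors that present ligands to RET were Gfra2, which binds neurturin, and Gfra3, which binds artemin. Gfra2 1433716_x_at gave 259.8 and 200 in vitamin E-fed ApoE-/- aortas, 211.8 and 215.0 in untreated ApoE-/- aortas, and 270.2 and 368.5 in B6 aortas. The vitamin E arrays spanned the untreated ones, and the B6 arrays lay above both. The untreated ApoE-/- signal was 1.48-fold lower than that of B6 aortas (log2 difference −0.56, SE 0.18, adjusted p = 0.0384). This call was lost without untreated array 1 (0.130), untreated array 2 (0.123) or B6 array 2 (0.227), and in moderation without a trend (0.0595). The call was also lost with the replicate number as a block (0.0555) and without the level filter (0.246). For vitamin E-fed aortas the log2 difference from B6 aortas was −0.47 (adjusted p = 0.0697). It ran from −0.69 to −0.25 when 1 array was left out and was called without vitamin E array 1 (−0.66, 0.0307), without B6 array 1 (−0.69, 0.0436) and after median centring (−0.62, 0.0146). From untreated ApoE-/- aortas the vitamin E signal differed by 0.095 (95% interval −0.32 to 0.51, adjusted p = 0.756). The ending x_at marks a probe set with probes that can match other transcripts. The other 4 Gfra2 probe sets were untested, between 2.01 and 102. Of these, 1459847_x_at read 56.4 and 75.3 in vitamin E-fed ApoE-/- aortas, 83.0 and 102.5 in untreated ApoE-/- aortas, and 76.4 and 76.8 in B6 aortas. Its untreated ApoE-/- arrays were thus the brightest, unlike those of 1433716_x_at. In 1425579_at all groups overlapped. Gfra3 1418880_at stayed just under the filter, with 60.2 and 60.2 in vitamin E-fed ApoE-/- aortas, 70.6 and 86.2 in untreated ApoE-/- aortas, and 76.3 and 113.3 in B6 aortas. Its vitamin E arrays were the dimmest, and its untreated and B6 arrays overlapped.

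Ngfr encodes p75, which sympathetic neurons and Schwann cells carry, and it was called in all 3 comparisons, as was Ntrk2 1435196_at. Ngfr 1454903_at read 368.0 and 423.3 in vitamin E-fed ApoE-/- aortas, 299.2 and 305.4 in untreated ApoE-/- aortas, and 473.9 and 503.0 in B6 aortas. The groups did not overlap, with untreated ApoE-/- aortas lowest, vitamin E-fed aortas between and B6 aortas highest. The untreated ApoE-/- signal was 1.62-fold lower than the B6 signal (log2 difference −0.69, SE 0.10, adjusted p = 0.00125), a call that held in all 6 fits that left out 1 array. With vitamin E the signal was 1.31-fold higher than in untreated ApoE-/- aortas (0.38, SE 0.10, adjusted p = 0.0358) and 1.24-fold lower than in B6 aortas (−0.31, SE 0.10, adjusted p = 0.0359). Both of these smaller calls held in only 1 of 6 such fits. The first was lost without vitamin E array 2 (0.0892), untreated array 1 (0.154), untreated array 2 (0.142), B6 array 1 (0.0742) or B6 array 2 (0.0732), and with each array centred on its median (0.0788), in moderation without a trend (0.0597) and with only the 2 groups fitted (0.0697). The second was lost without vitamin E array 1 (0.116), untreated array 1 (0.0605), untreated array 2 (0.0608), B6 array 1 (0.0973) or B6 array 2 (0.179), in moderation without a trend (0.0546) and with only the 2 groups fitted (0.0554). Without the level filter both smaller calls were also lost (0.148 and 0.128). The dimmer probe set 1450177_at, untested, gave 61.2 and 52.2 in vitamin E-fed ApoE-/- aortas, 49.2 and 35.7 in untreated ApoE-/- aortas, and 37.9 and 39.4 in B6 aortas. Here the untreated ApoE-/- and B6 arrays overlapped. The remaining probe set, 1421241_at, was below 6 on all arrays.

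TrkB, the product of Ntrk2, was read by probe sets that did not give one picture. Ntrk2 1420838_at, the brighter one, gave 676.2 and 825.5 in vitamin E-fed ApoE-/- aortas, 917.2 and 1157 in untreated ApoE-/- aortas, and 1095 and 1093 in B6 aortas. Untreated and B6 arrays overlapped, and the vitamin E arrays lay below both. Ntrk2 1435196_at read 287.2 and 286.6 in vitamin E-fed ApoE-/- aortas, 429.9 and 472.0 in untreated ApoE-/- aortas, and 542.0 and 554.3 in B6 aortas, with no overlap. For 1435196_at the vitamin E signal was 1.57-fold lower than in untreated ApoE-/- aortas (log2 difference −0.65, SE 0.082, adjusted p = 0.00292) and 1.91-fold lower than in B6 aortas (−0.93, SE 0.082, adjusted p = 0.00019), and both calls held in all 6 fits that left out 1 array. Untreated ApoE-/- aortas were 1.22-fold lower than B6 aortas in this probe set (−0.28, SE 0.082, adjusted p = 0.0289), a call lost without untreated array 1 (0.172), untreated array 2 (0.0535), B6 array 1 (0.107) or B6 array 2 (0.136). For 1420838_at the vitamin E signal was 1.46-fold lower than in B6 aortas (−0.55, SE 0.13, adjusted p = 0.0125), lost without B6 array 1 (0.0728) or B6 array 2 (0.0693). Against untreated ApoE-/- aortas its log2 difference of −0.46 missed the threshold (adjusted p = 0.0502), but was called with the replicate number as a block (0.0304). It ran from −0.63 to −0.30 when 1 array was left out and was called without vitamin E array 2 (−0.61, 0.0265), without untreated array 1 (−0.63, 0.0480) and after median centring (−0.55, 0.0130). Between untreated ApoE-/- and B6 aortas that probe set differed by −0.086 (95% interval −0.39 to 0.21, adjusted p = 0.620). The other 6 Ntrk2 probe sets lay between 3.12 and 29.1 and were untested.

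The promoters of Ngfr and Ntrk2 are shown because these receptors were called in opposite directions with vitamin E. Each window holds 250 bases before and 50 after the annotated start, from RefSeq on GRCm38.p6, read 5′ to 3′ on the strand of the gene. Capitals mark GC boxes (GGGCGG on either strand).
Ngfr, chr11:95587649-95587948, minus strand: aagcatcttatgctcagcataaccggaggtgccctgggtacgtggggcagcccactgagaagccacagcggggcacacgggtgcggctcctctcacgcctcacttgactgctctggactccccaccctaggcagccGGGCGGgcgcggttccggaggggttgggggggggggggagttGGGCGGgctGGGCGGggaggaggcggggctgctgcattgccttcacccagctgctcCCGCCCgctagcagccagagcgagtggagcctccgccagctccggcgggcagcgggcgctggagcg
Ntrk2, chr13:58806319-58806618, plus strand: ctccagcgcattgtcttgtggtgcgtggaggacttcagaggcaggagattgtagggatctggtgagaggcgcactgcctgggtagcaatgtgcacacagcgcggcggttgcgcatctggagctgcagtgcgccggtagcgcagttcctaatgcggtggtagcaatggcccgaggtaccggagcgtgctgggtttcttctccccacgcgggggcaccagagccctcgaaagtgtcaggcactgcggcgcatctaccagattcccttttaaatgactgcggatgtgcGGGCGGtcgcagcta
The Ngfr window held 4 GC boxes, 3 on the strand of the gene and 1 on the other, at a GC content of 71.7%, and the Ntrk2 window held 1 at 61.3%. A GC box was present in 35.7% of the 32851 windows of this table, and 4 or more in 5.49%. E-boxes (CANNTG) numbered 2 in the Ngfr and 1 in the Ntrk2 window and occurred in 72.3% of all windows. TATAAA on either strand, present in 13.6% of windows, was in neither. These are matches of letters, not binding sites, and the arrays do not measure promoters. The table held windows for 4 of the 8 listed genes, by symbol.

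TrkC, the product of Ntrk3, was also read by several probe sets. Ntrk3 1433825_at, the brightest, gave 436.5 and 558.7 in vitamin E-fed ApoE-/- aortas, 576.0 and 543.2 in untreated ApoE-/- aortas, and 722.5 and 701.5 in B6 aortas. B6 arrays lay above all others, and the ApoE-/- groups overlapped. The vitamin E signal was 1.44-fold below that of B6 aortas (log2 difference −0.53, SE 0.12, adjusted p = 0.00963), lost without B6 array 1 (0.0671) or B6 array 2 (0.0522). The untreated ApoE-/- signal was 1.27-fold lower than in B6 aortas (−0.35, SE 0.12, adjusted p = 0.0462). This difference ran from −0.39 to −0.31 when 1 array was left out. The call was lost after quantile normalization (0.0555) and in moderation without a trend (0.0840). It was also lost with the replicate number as a block (0.0596) and without the level filter (0.254). Between vitamin E-fed and untreated ApoE-/- aortas the log2 difference was −0.18 (95% interval −0.45 to 0.091, adjusted p = 0.328), but −0.36 and called without vitamin E array 2 (0.0303).

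A dimmer Ntrk3 probe set, 1447723_at, showed a wider gap. It read 36.1 and 41.0 in vitamin E-fed ApoE-/- aortas, 27.6 and 27.2 in untreated ApoE-/- aortas, and 118.4 and 99.7 in B6 aortas. As a description, since its B6 level alone took it through the filter, the untreated ApoE-/- signal was 3.97-fold and the vitamin E signal 2.82-fold lower than the B6 signal. Without B6 array 1 it no longer passed the filter. Vitamin E-fed aortas lay above untreated ones by 0.49 on the log2 scale (95% interval 0.0055 to 0.98), with an adjusted p of 0.154. Ntrk3 1455917_at, untested, was likewise dimmer in ApoE-/- aortas, with 19.2 and 28.8 in vitamin E-fed, 35.7 and 24.6 in untreated ApoE-/- and 62.6 and 72.5 in B6 aortas. Ntrk3 1425071_s_at did not show this order, with 92.8 and 92.1 in vitamin E-fed ApoE-/- aortas, 101.8 and 124.5 in untreated ApoE-/- aortas, and 97.2 and 80.4 in B6 aortas. Its untreated ApoE-/- level alone took it through the filter, so that the untreated mean had to be the highest. None of the comparisons of 1425071_s_at was called (adjusted p = 0.312 for vitamin E-fed against untreated ApoE-/- aortas, 0.153 for untreated ApoE-/- against B6 aortas, and 0.796 for vitamin E-fed ApoE-/- against B6 aortas). The remaining 4 Ntrk3 probe sets were untested.

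**Figure D2:**
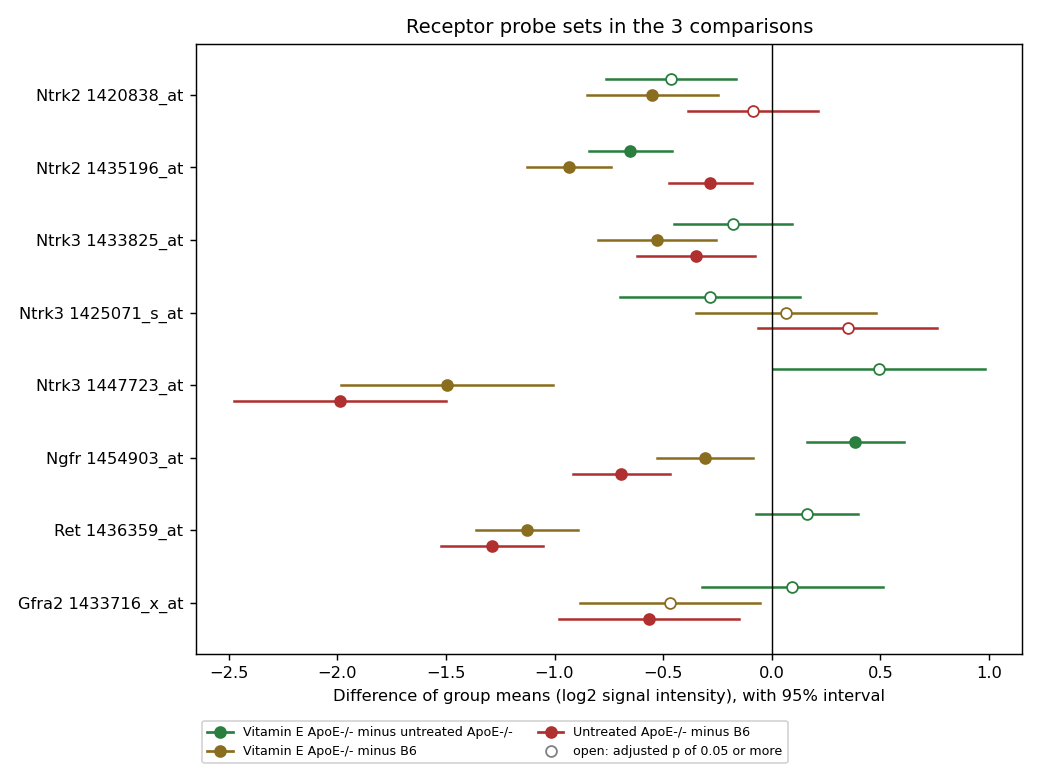
Differences of group means (log2 signal intensity, x axis) for the 8 receptor probe sets tested, with 95% intervals from the limma fit, for vitamin E-fed minus untreated ApoE-/- (green), vitamin E-fed ApoE-/- minus B6 (brown) and untreated ApoE-/- minus B6 aortas (red). Filled points have an adjusted p under 0.05. Ret 1436359_at lies at −1.13 and −1.29 against B6, and Ngfr and Ntrk2 1435196_at lie on opposite sides of 0 in green.

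In all, 21 member probe sets were untested, with values between 1.69 and 113. Of these, 4 were under 20 on every array and 14 on some. When the filter was dropped, limma called 0 of the 21 in each comparison. At an unadjusted p under 0.05 it found 1 for vitamin E-fed against untreated ApoE-/- aortas, 3 for untreated ApoE-/- against B6 aortas and 2 for vitamin E-fed ApoE-/- against B6 aortas. The lowest adjusted p in the same order was 0.237, 0.111 and 0.0712.

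**Figure D3:**
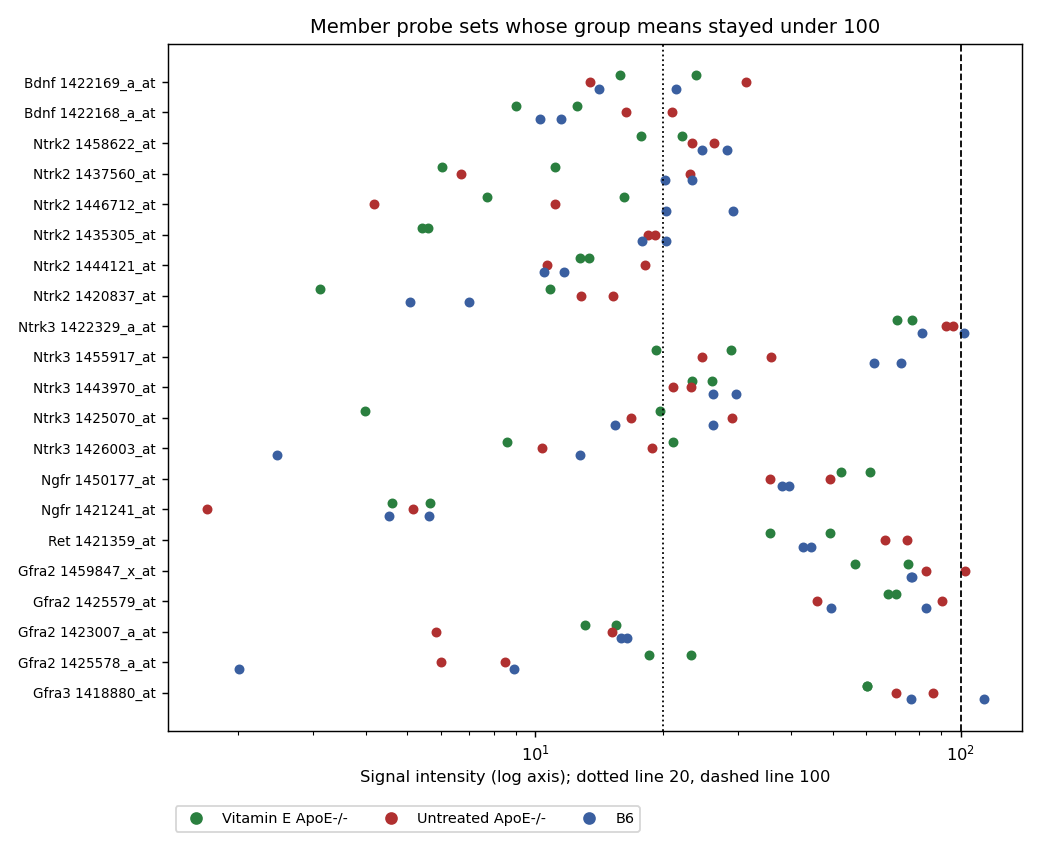
Signal intensity (log axis) of the 21 member probe sets whose group means stayed under 100, in vitamin E-fed ApoE-/- (green), untreated ApoE-/- (red) and B6 aortas (blue), 1 point per array. The dotted line marks the floor of 20 and the dashed line 100, and both Bdnf probe sets lie around the dotted line in all groups.

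Set side by side by the brightest probe set of each gene, the factor and the receptors had the following log2 differences. Between untreated ApoE-/- and B6 aortas Bdnf stood at 0.27, with a within-group SD of 0.28, while the receptors ranged from −1.29 (Ret) over −0.69 (Ngfr), −0.56 (Gfra2), −0.35 (Ntrk3) and −0.25 (Gfra3) to −0.086 (Ntrk2). Between vitamin E-fed and untreated ApoE-/- aortas Bdnf stood at −0.20 and the receptors lay between −0.46 (Ntrk2) and 0.38 (Ngfr). Between vitamin E-fed ApoE-/- and B6 aortas Bdnf stood at 0.078 and the receptors lay between −1.13 (Ret) and −0.31 (Ngfr). With all probe sets of a gene averaged, the Ngfr difference between vitamin E-fed ApoE-/- and B6 aortas became 0.080 and the Ret difference between vitamin E-fed and untreated ApoE-/- aortas became −0.29, since the dim probe sets of both genes ran the other way. Among the members, a contrast between factors and receptors thus rests on 1 factor at background level and was not tested. The ligand Nrtn (neurturin), outside the member list, was called higher in both ApoE-/- groups than in B6 aortas and is given below.

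Of 30 further genes of these pathways, 26 had probe sets and 10 were tested with 12 probe sets. By the brightest probe set of each gene, 4 of the 10 were called higher and 0 lower in untreated ApoE-/- against B6 aortas (median log2 difference 0.25, against 0.029 over all probe sets tested), where 21.7% of all probe sets were called higher. Vitamin E-fed against untreated ApoE-/- aortas gave 0 higher and 4 lower (median −0.29), where 6.99% of all were called lower. Vitamin E-fed ApoE-/- against B6 aortas gave 3 higher and 4 lower (median −0.036), where 21.9% of all were called higher and 19.2% lower, and the 8 probe sets called there became 5 without B6 array 1.

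Among the ligands, Nrtn (neurturin, which signals through GFRα2 and RET) alone was bright enough to test. Nrtn read 299.5 and 410.5 in vitamin E-fed ApoE-/- aortas, 448.1 and 403.8 in untreated ApoE-/- aortas, and 241.6 and 237.4 in B6 aortas. B6 arrays were the dimmest for this ligand, whereas they were the brightest for Ret 1436359_at and Gfra2 1433716_x_at. The untested Ret 1421359_at and Gfra2 1459847_x_at were instead brightest in untreated ApoE-/- aortas. The untreated ApoE-/- signal was 1.78-fold higher than the B6 signal (log2 difference 0.83, SE 0.15, adjusted p = 0.00407), which held in all 6 fits that left out 1 array but not without the level filter (0.0837). The vitamin E signal was 1.46-fold higher than the B6 signal (0.55, SE 0.15, adjusted p = 0.0218), lost without vitamin E array 2 (0.0557), B6 array 1 (0.0941) or B6 array 2 (0.102), and after median centring (0.0558). Vitamin E-fed and untreated ApoE-/- aortas differed by −0.28 (95% interval −0.63 to 0.068, adjusted p = 0.242), called only without vitamin E array 2 (−0.51, 0.0286). The other GDNF-family ligands (Gdnf, Artn, Pspn) and Ntf5 were untested, below 44 on all arrays.

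The protease and sorting receptors that handle pro-neurotrophins diverged. Furin, which cleaves the precursors, gave 358.6 and 387.9 in vitamin E-fed ApoE-/- aortas, 460.0 and 444.0 in untreated ApoE-/- aortas, and 240.4 and 243.0 in B6 aortas. Furin was 1.87-fold higher in untreated ApoE-/- than B6 aortas (adjusted p = 0.000236) and 1.54-fold higher in vitamin E-fed ApoE-/- than in B6 aortas (adjusted p = 0.00133). Sorcs2, a sortilin-related receptor that pairs with p75, read 177.4 and 194.2 in vitamin E-fed ApoE-/- aortas, 398.5 and 360.7 in untreated ApoE-/- aortas, and 272.7 and 236.4 in B6 aortas. Its untreated ApoE-/- arrays were highest and its vitamin E arrays lowest. The Sorcs2 signal with vitamin E was 2.04-fold lower than in untreated ApoE-/- aortas (adjusted p = 0.0019), which held in all 6 fits that left out 1 array. Sorcs2 was 1.49-fold higher in untreated ApoE-/- than B6 aortas (adjusted p = 0.00673, but 0.0536 without untreated array 1 and 0.0549 without B6 array 2). With vitamin E it was 1.37-fold lower than in B6 aortas (adjusted p = 0.0183, but 0.0564 without vitamin E array 1 and 0.124 without B6 array 1). Sort1, sortilin, which binds pro-neurotrophins together with p75, was 1.44-fold lower in vitamin E-fed ApoE-/- than in B6 aortas by probe set 1423362_at (adjusted p = 0.00177). By the same probe set it was 1.24-fold lower with vitamin E than in untreated ApoE-/- aortas (adjusted p = 0.0368), a call that held in only 1 of 6 fits that left out 1 array, the one without vitamin E array 2. Its dimmer probe set 1450955_s_at was 1.51-fold lower in untreated ApoE-/- than B6 aortas (adjusted p = 0.00852, but 0.0543 without untreated array 1 and 0.0643 without B6 array 1) and 1.53-fold lower in vitamin E-fed ApoE-/- than in B6 aortas (adjusted p = 0.00765, but 0.0592 without B6 array 1).

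Adaptors downstream of the receptors, which many other receptors share, were called in both directions. Shc1, a phosphotyrosine adaptor, was 1.92-fold higher in untreated ApoE-/- (adjusted p = 0.0013) and 1.64-fold higher in vitamin E-fed ApoE-/- (adjusted p = 0.00441) than in B6 aortas. Sh2b2, an adaptor of receptor tyrosine kinases, was 1.64-fold lower in vitamin E-fed than in untreated ApoE-/- aortas (adjusted p = 0.00117) and 1.58-fold lower than in B6 aortas (adjusted p = 0.00052). Maged1, a p75-binding protein, was 1.35-fold lower in vitamin E-fed than in untreated ApoE-/- aortas (adjusted p = 0.0109, but 0.0842 without untreated array 1) and 1.5-fold lower than in B6 aortas (adjusted p = 0.00109). Kidins220, a scaffold of Trk receptors, and Bex3, another p75-binding protein, were called in no comparison.

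Genes with the array pattern nearest to each member were taken by the root mean square difference of centred log2 values over the 6 arrays, among 16077 probe sets. Nearest to Ret was Syn2, a synaptic vesicle protein, at 0.041, followed by Fdft1, squalene synthase, at 0.047 and Rtn4, Nogo, at 0.056. Syn2 read 265.0 and 256.5 in vitamin E-fed ApoE-/- aortas, 243.9 and 219.3 in untreated ApoE-/- aortas, and 578.9 and 571.3 in B6 aortas. Ngfr was nearest to Myo6, an actin motor, at 0.037, Arpc5l at 0.046 and G0s2, an inhibitor of lipolysis, at 0.049. For Ntrk2 1420838_at the nearest were Abca9 at 0.055, Snhg18 at 0.061 and Mfap5, a microfibril protein, at 0.062. Ntrk3 1433825_at lay nearest to Kbtbd11 at 0.033, Acot13 at 0.042 and Serpina10 at 0.048, and Gfra2 to Ap3m1 at 0.052, Tmem30a at 0.062 and Egfr, the EGF receptor, at 0.071. These distances describe 6 arrays in 3 groups and carry no test.

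Markers of nerve cells also differed between the groups. Beside the counts below, 19.1% of all probe sets tested were called lower and 21.7% higher in untreated ApoE-/- against B6 aortas. For vitamin E-fed against untreated ApoE-/- aortas, 8.52% were called higher and 6.99% lower. The summed signal of 9 sympathetic neuron markers was 5931 to 6261 in vitamin E-fed ApoE-/- aortas, 4480 to 4566 in untreated ApoE-/- aortas and 11572 to 11995 in B6 aortas. Of the 9, 8 were lower and 1 (Gata3) higher in untreated ApoE-/- than B6 aortas (median −1.16), and with vitamin E 5 were higher and 0 lower than in untreated ApoE-/- aortas (median 0.39). For 10 general neuronal markers the sums were 4143 to 4189, 3073 to 3226 and 8270 to 8287 in the same order of groups. All 10 were lower in untreated ApoE-/- than B6 aortas (median −1.43), and 6 were higher with vitamin E than in untreated ApoE-/- aortas (median 0.39). Called probe sets of these 2 lists between the ApoE-/- groups numbered 7 of 13 and 8 of 14, but 2 and 4 without untreated array 1, 2 and 1 without untreated array 2, 3 and 5 without either B6 array, and 2 and 5 after median centring. Schwann cell markers summed to 1634 to 1726 in vitamin E-fed ApoE-/- aortas, 1835 to 1863 in untreated ApoE-/- aortas and 2477 to 2513 in B6 aortas. Of these 5, 4 were lower and 1 (S100b) higher in untreated ApoE-/- than B6 aortas. The 6 sensory neuron markers summed to 210 to 211 in vitamin E-fed ApoE-/- aortas, 218 to 219 in untreated ApoE-/- aortas and 385 to 416 in B6 aortas. Only Avil among them was tested, and it was lower in untreated ApoE-/- (log2 difference −1.30) and in vitamin E-fed ApoE-/- aortas (−1.33) than in B6 aortas, while Scn10a and Scn11a stayed below 24 on all arrays. The 5 enteric and parasympathetic markers summed to 318 to 341, 186 to 203 and 319 to 373 in vitamin E-fed ApoE-/-, untreated ApoE-/- and B6 aortas. Both tested ones, Vip and Nos1, were lower in untreated ApoE-/- than B6 aortas (−1.05 and −0.95) and Nos1 was higher with vitamin E than in untreated ApoE-/- aortas (1.15), while Chat and Slc5a7 stayed below 24. As a percentage of the B6 mean, Ret stood at 45.4% and 46.2% in vitamin E-fed ApoE-/- aortas and at 42.3% and 39.7% in untreated ApoE-/- aortas. The sympathetic sum stood at 50.3% and 53.1% in vitamin E-fed ApoE-/- aortas and at 38.7% and 38.0% in untreated ApoE-/- aortas. Ngfr was nearer to B6, at 75.3% and 86.7% in vitamin E-fed ApoE-/- aortas and at 61.2% and 62.5% in untreated ApoE-/- aortas. Markers of other tissues also moved between groups. Liver sums were 1323 to 1387, 697 to 727 and 15293 to 15300 in vitamin E-fed ApoE-/-, untreated ApoE-/- and B6 aortas, which is the order of the groups in Ret and Ngfr. The sympathetic and general neuronal sums had that order too. Lung sums were 10208 to 10296, 13038 to 13474 and 15942 to 16585 in the same groups, which is the order in Ntrk2 1435196_at. The smooth muscle, Schwann cell and sensory neuron sums shared this order with lung. The medians over single markers did not always follow the sums. Schwann cell markers had a median of 0.18 with vitamin E against untreated ApoE-/- aortas (0 of 5 called higher, 1 lower). Smooth muscle markers had a median of 0.11 in untreated ApoE-/- against B6 aortas (1 of 6 called higher, 0 lower). Skeletal muscle sums of 32973 to 38717, 17882 to 17993 and 30121 to 30737 and stratified epithelium sums of 22155 to 25527, 12826 to 12903 and 21703 to 22113 were lowest in untreated ApoE-/- aortas. Smooth muscle sums were 15510 to 16583, 17292 to 17895 and 18372 to 18951, heart muscle sums 21759 to 24173, 39039 to 40035 and 20253 to 20442, and thymocyte sums 6680 to 6862, 3613 to 4675 and 541 to 614 in vitamin E-fed ApoE-/-, untreated ApoE-/- and B6 aortas. The part of nerve content or of other tissue in the receptor differences was not tested.

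**Figure D4:**
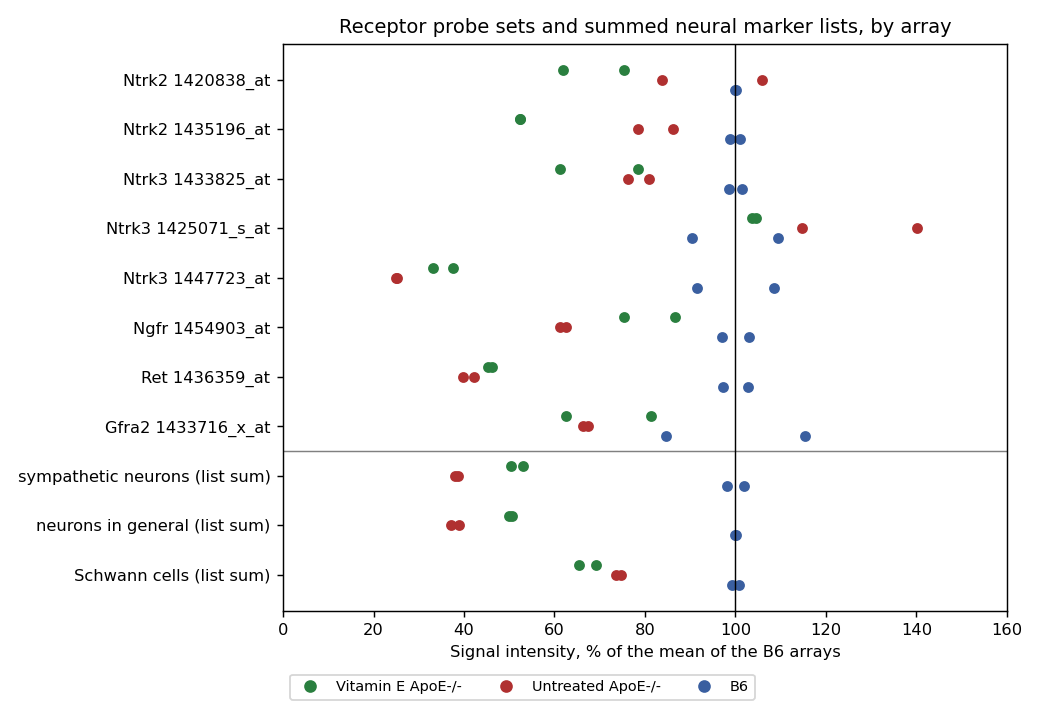
Signal intensity as a percentage of the mean of the 2 B6 arrays (x axis, from 0) for the 8 receptor probe sets and for the summed signal of 3 neural marker lists, in vitamin E-fed ApoE-/- (green), untreated ApoE-/- (red) and B6 aortas (blue), 1 point per array. Ret lies between 39.7% and 46.2% in ApoE-/- aortas, and Ngfr between 61.2% and 86.7%, beside sympathetic sums of 38.0% to 53.1%.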

How the data were processed

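Total RNA of mouse aortas had been hybridized to Affymetrix MG430 2.0 arrays, 2 per group, each with RNA pooled from 3 aortas. The authors scaled the arrays in GCOS, and the deposited values are signal intensity on a linear scale, 1 per probe set. No counts exist, and precision is limited by the number of arrays. Of 45101 probe sets, 64 controls were left out, 34945 carry 1 gene symbol, 932 several and 9160 none in the platform annotation.

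Signals were floored at 20 before taking log2. The 17909 probe sets averaging 100 or more in any group were fitted with limma 3.58.1 in R 4.3.3, with 1 mean per group, all 6 arrays and a trended moderated variance (3 residual degrees of freedom), and Benjamini-Hochberg adjustment over all of them. A call is an adjusted p under 0.05. The fit was tested on simulated data. An exact permutation test of 2 against 2 arrays cannot go below p = 0.333, so none was used. The alternatives were quantile normalization, median centring, other floors and filters, moderation without trend, a replicate block, only the 2 groups compared, leaving out each array, and the methods' t-test. Member genes, pathway and marker lists were chosen with earlier results of these data known. Named were all members, the pathway genes called in any comparison with the 2 brightest of the rest, and the 3 genes with the nearest pattern to each tested member. GC boxes and other motifs were searched on both strands.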

Additional observations from a re-analysis of the deposited data

How the results depend on the processing

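Ret 1436359_at and Ngfr in untreated ApoE-/- against B6 aortas, and Ntrk2 1435196_at in vitamin E-fed against untreated ApoE-/- aortas, kept their direction and call wherever limma tested them. Counts are given in the order untreated ApoE-/- against B6, vitamin E-fed against untreated ApoE-/- and vitamin E-fed ApoE-/- against B6 aortas. Without the filter, the member calls were 3, 1 and 3 (6, 2 and 6 as reported), the pathway calls 3, 2 and 5 (5, 4 and 8) and all calls 4494, 949 and 4464 (7305, 2777 and 7368). With only the 2 groups compared, 1 member and 1820 probe sets in all were called for vitamin E-fed against untreated ApoE-/- aortas. Leaving out each array gave 3 to 6, 1 to 3 and 3 to 6 member calls, 4 to 6, 3 to 5 and 5 to 8 pathway calls, and 4337 to 8791, 808 to 3517 and 4353 to 7507 calls in all. The methods' t-test, at their threshold of p and fold on log2 values, called 2, 0 and 1 members, 0, 1 and 0 pathway probe sets and 768, 179 and 582 in all. Its calls after Benjamini-Hochberg used another rule, an adjusted p under 0.05 over the probe sets passing the level filter, without a fold threshold. By that rule it called 3, 0 and 0, then 1, 0 and 0, then 2156, 0 and 67. On linear values it called 1, 0 and 1, then 0, 0 and 0, then 772, 176 and 585, and after adjustment 1, 0 and 0, then 1, 0 and 0, then 2166, 0 and 76. For these differences the cause was not tested. Median centring shifted the median of all probe sets by −0.069, −0.084 and −0.15 (log2), and the share of calls that were higher became 43.2%, 33.8% and 31.4%, against 53.1%, 55.0% and 53.3%.

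Averaging all probe sets of a gene in place of the brightest moved the Ngfr difference to −0.19, 0.27 and 0.080 (the last one with its sign reversed), Ret to −0.30, −0.29 and −0.59, Gfra2 against B6 to −0.058 in untreated and −0.097 in vitamin E-fed ApoE-/- aortas, and Ntrk2 with vitamin E to −0.18 against untreated ApoE-/- and −0.28 against B6 aortas. For Ngfr, Ntrk2 and Gfra2, probe sets under the floor on every array add no difference to the average and shrink it. Some uncalled log2 differences changed sign when 1 array was left out. In untreated ApoE-/- against B6 aortas, Ntrk2 1420838_at ran from −0.25 to 0.081 and Kidins220 1433852_at from −0.026 to 0.031. With vitamin E against untreated ApoE-/- aortas, Gfra2 ran from −0.094 to 0.28, Bex3 from −0.070 to 0.20, Kidins220 1433852_at from −0.093 to 0.036 and Sort1 1450955_s_at from −0.061 to 0.028. With vitamin E against B6 aortas, Ntrk3 1425071_s_at ran from −0.073 to 0.20, Bex3 from −0.18 to 0.086, Kidins220 1433852_at from −0.090 to 0.039, Kidins220 1455762_at from −0.15 to 0.057 and Sh2b1 from −0.056 to 0.083. Scaling turned the sign of Ntrk3 1425071_s_at (−0.072 after quantile normalization, −0.089 after median centring) and Sh2b1 (−0.016 and −0.14) in the last comparison, of Bex3 between the ApoE-/- groups (−0.021 after median centring), and of Kidins220 1433852_at (−0.066) and Sh2b2 (−0.0093) between untreated ApoE-/- and B6 aortas.

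With the replicate number as a block, 4, 3 and 6 member and 6887, 2185 and 6991 probe sets in all were called. Deviations of same-numbered arrays correlated at 0.054, 0.055 and −0.098 between untreated ApoE-/- and B6, vitamin E and untreated, and vitamin E and B6 aortas. These values gave no sign that the numbers pair the arrays. With 2 arrays per group they cannot decide it. The counts for the neuronal and Schwann cell marker lists under these settings were added after seeing the data.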
